A study of Homo sapiens with 8 samples.

Results

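The levels of 10 genes that restrain or tune mTORC1, the growth-promoting kinase complex of the lysosome, were followed in hepatoma cells recovering from oxygen and glucose deprivation. They were chosen by symbol, as the inhibitors and nutrient-sensing regulators DDIT4, SESN1, SESN2, SESN3, TSC1, TSC2, DEPTOR, EIF4EBP1, RRAGD and FLCN. All 10 were among the 15767 genes of the deposited count table, and all 10 passed the filter on low counts that left 12910 genes for testing. The RNA came from HuH7 cells, a human hepatoma-derived line labelled wildtype, in 8 libraries. All cells were deprived of glucose at 1% oxygen for 6 h and then returned to normoxia for 6 h (OGD/R, a culture model of ischemia/reperfusion). During those last 6 h they received either the solvent DMSO (I/R+DMSO, n = 4) or ginsenoside Rk2, a saponin of ginseng, at 20 µM (I/R+Rk2, n = 4). Every value below therefore compares Rk2 with DMSO in cells that had all gone through OGD/R, and cells that had not gone through it are not analysed here. All libraries come from 1 cell line, and nothing in the labels says that the replicates were separate cultures, so the p-values measure only the spread between these libraries, which may be technical.

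mTORC1 promotes protein synthesis and cell growth when amino acids, energy and growth factors suffice, and cells under stress hold it back at several points. The TSC complex, of which TSC1 and TSC2 are subunits, switches off the small GTPase Rheb that activates the kinase, and the product of DDIT4 (REDD1) acts through that complex. Sestrins and the Rag GTPases act on the amino acid branch, in which Rag heterodimers bring mTORC1 to the lysosome, while DEPTOR binds the kinase itself and 4E-BP1, encoded by EIF4EBP1, holds the cap-binding factor eIF4E until mTORC1 phosphorylates it. All values here are RNA levels, so neither the activity of mTORC1 nor any phosphorylation was measured.

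After Rk2, 6 of the 10 genes rose and none fell. SESN2 and DDIT4 rose most, followed by DEPTOR, RRAGD, FLCN and TSC1, while EIF4EBP1 lay just short of the threshold and SESN1, SESN3 and TSC2 did not pass it. Levels are given as CPM, counts scaled to library size with edgeR's TMM method, and as FPKM, which the authors had scaled to gene length as well. Changes are given as the log2 of the fold change of I/R+Rk2 over I/R+DMSO (log2FC) with its standard error (SE). A gene was called higher or lower when its adjusted p was below 0.05 in edgeR's quasi-likelihood test on TMM-normalized counts, with Benjamini-Hochberg adjustment over all 12910 genes. Among all genes tested, 18.2% were called by this rule, 11.0% higher and 7.24% lower. A fold change above 1.5 in addition was reached upwards by 2.46% of all genes, and by 5 of the 10 members, TSC1 being the called member below it. DEPTOR, one of these, came just under that fold change without I/R+DMSO replicate 1. In 6 members no I/R+Rk2 library lay within the range of I/R+DMSO or the reverse, against 28.3% of all genes. The median log2 fold change of the 10 members was 0.56, where that of all tested genes was -0.00205. The members were chosen with earlier results of these data known, and DDIT4 is also on a list that the study took from these same libraries, so the counts are a description of these genes. At an unadjusted p below 0.05 edgeR likewise found 0 members lower, and DESeq2 and limma on FPKM called 0 lower.

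**Figure D1:**
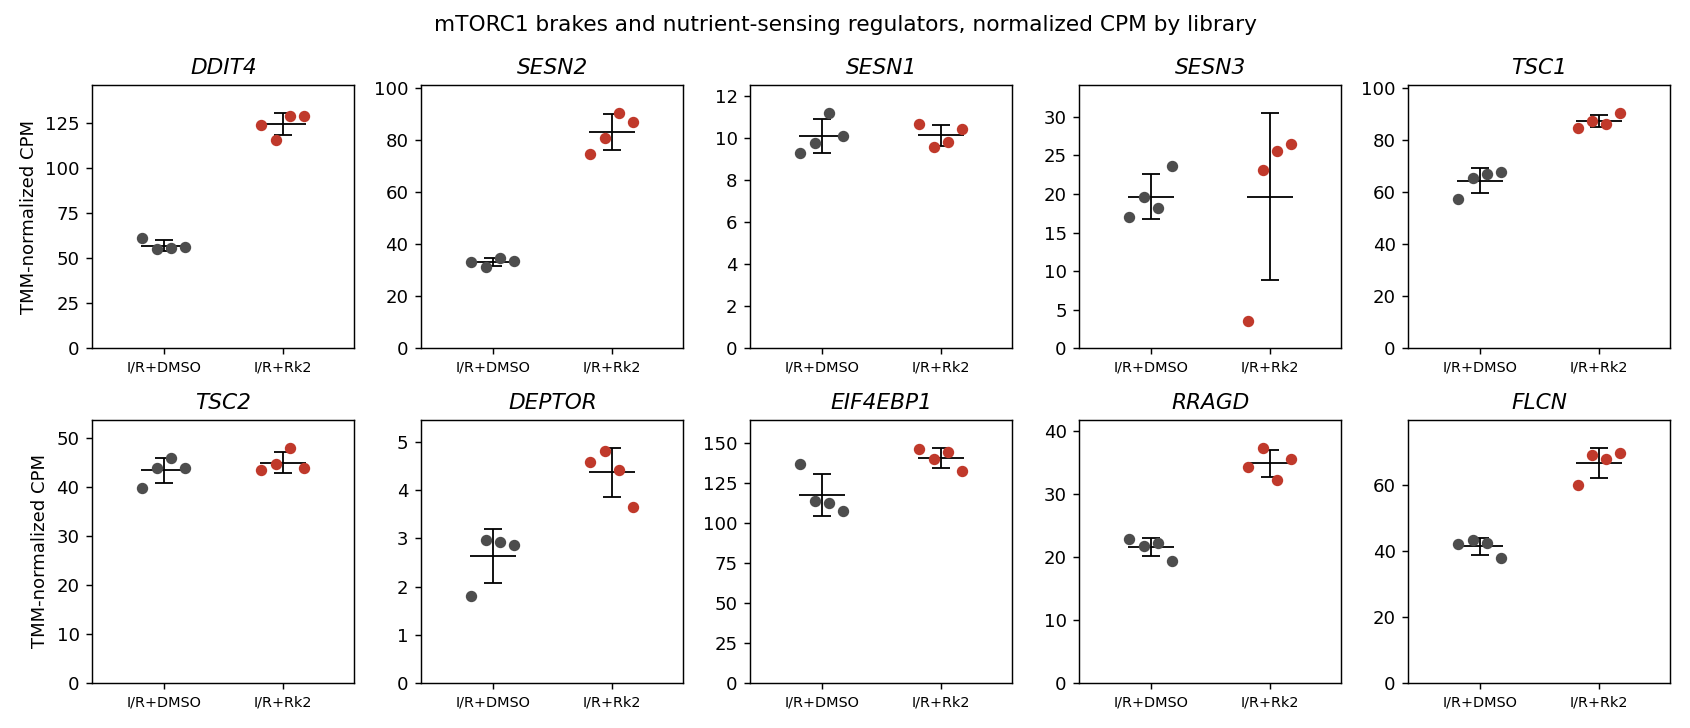
TMM-normalized counts scaled to library size (CPM, y axis, from 0) of the 10 genes in each library of I/R+DMSO (grey) and I/R+Rk2 (red), with the mean and SD (bars, n = 4). DDIT4, SESN2, TSC1, DEPTOR, RRAGD and FLCN show no overlap between groups, and in SESN3 I/R+Rk2 replicate 1 lies at 3.51 CPM, apart from the rest of its group.

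Library totals lay between 18428485 and 21447045 counts in I/R+DMSO and between 16374082 and 30310479 in I/R+Rk2. The cells were labelled as HuH7, and all 10 hepatic markers examined were tested, with ALB at a mean of 2288 CPM and AFP at 5937 CPM in I/R+DMSO against 2306 and 5940 in I/R+Rk2. Of the 10, APOB was higher (log2FC 0.61, and 0.27 with the gene length correction) and FGB lower (-0.27, called in 1 of 8 leave-one-out fits). Of all genes tested 11.0% were called higher and 7.24% lower, so single calls among these or the following markers are not particular to them. Of 9 markers of leukocytes, fibroblasts and endothelial cells, 5 could be tested and 1 was lower, CD14 at a mean of 0.803 against 0.341 CPM (5 to 24 reads per library, called in 2 of 8 leave-one-out fits). The others tested were detected and did not pass: CD68, COL1A2, PECAM1 and PDGFRB had means of 52.4, 18.1, 9.31 and 2.40 CPM in I/R+DMSO. PTPRC, VWF and CDH5 were listed at 0 FPKM in every library. In bulk RNA a smaller number of cells of one kind and less RNA per cell cannot be told apart. Longer genes had higher log2FC values across 12745 genes (Spearman's rho = 0.395, genes not being independent replicates), so a value is also given with a correction for gene length where that moved it most or ended a call. I/R+DMSO replicate 1 stood apart from its group on the second principal component of the libraries, at 78.7 against -48.6 to -41.4, and results that rest on it are given without it as well.

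To show where the stress-responsive members start, the RefSeq windows from 250 bases before to 50 bases after the start site (GRCh38.p14) are given for DDIT4 and SESN2, which rose most, and for TSC2, which did not pass the test and of whose windows the one printed is the first. They lie at chr10:72273674-72273973, chr1:28259268-28259567 and chr16:2047735-2048034, all on the plus strand, and are written 5′ to 3′ with matches to a searched motif in capitals. A window was found for 7 of the 10 members.
DDIT4: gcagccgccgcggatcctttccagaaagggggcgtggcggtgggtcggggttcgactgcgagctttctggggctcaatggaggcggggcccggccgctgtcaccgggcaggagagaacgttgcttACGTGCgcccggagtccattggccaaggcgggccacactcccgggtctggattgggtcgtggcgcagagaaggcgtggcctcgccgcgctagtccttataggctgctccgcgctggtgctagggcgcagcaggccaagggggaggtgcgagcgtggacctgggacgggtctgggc
SESN2: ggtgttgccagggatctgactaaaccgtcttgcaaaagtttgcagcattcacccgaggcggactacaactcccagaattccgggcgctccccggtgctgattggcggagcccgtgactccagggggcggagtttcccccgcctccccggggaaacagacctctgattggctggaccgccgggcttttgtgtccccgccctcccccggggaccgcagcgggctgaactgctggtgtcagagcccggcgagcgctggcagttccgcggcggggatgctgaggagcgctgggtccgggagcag
TSC2: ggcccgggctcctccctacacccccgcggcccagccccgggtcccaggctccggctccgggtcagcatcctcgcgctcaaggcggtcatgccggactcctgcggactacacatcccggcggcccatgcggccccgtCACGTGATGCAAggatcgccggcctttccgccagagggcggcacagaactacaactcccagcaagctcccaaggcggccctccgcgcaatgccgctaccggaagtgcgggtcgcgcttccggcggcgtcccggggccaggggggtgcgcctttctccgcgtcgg

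The motifs were searched on both strands in all 35116 windows of the table. ACGTGC, the form searched for of the hypoxia response element to which HIF-1 binds, was in the DDIT4 window. Its first base lay 125 bases before the start site, and 6.89% of all windows hold this form. Other forms of the element were not searched for in any window. TGATGNAA, the C/EBP-ATF composite element that ATF4 recognizes, was in the printed TSC2 window at 110 bases before the start, not in that of the other TSC2 start, and in 3.62% of all windows. There it overlaps a match to the E-box CACGTG, first base at 114 before the start, which 7.26% of windows hold. No member's window held the FOXO element GTAAACA (3.42% of all windows) or the TATA box TATAAA (11.5%). The SESN2 window held no match to these motifs, which says nothing of sites outside it. The GC content was 69.7% for DDIT4, 67% for SESN2 and 73% for TSC2, where the median window has 58.7%.

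DDIT4 and the sestrins are the stress-induced members. DDIT4, at chromosome 10, 72273920 to 72276036 (plus strand; GRCh38, GENCODE v29), encodes REDD1, which is induced by hypoxia, energy stress and glucocorticoids. Its CPM in I/R+DMSO was 61.3, 55.3, 55.7 and 56.1 in replicates 1 to 4, and in I/R+Rk2 it was 124, 116, 129 and 129. The lowest I/R+Rk2 library lay well above the highest I/R+DMSO library, replicate 1, and the spread within either group was small. The fold change was 2.18 (95% interval 1.99 to 2.39; log2FC 1.13, SE 0.0540, edgeR adjusted p = 3.4e-05). Of all 12910 genes tested, DDIT4 ranked 102 from the top by log2FC. Per length, its mean was 27.7 FPKM in I/R+DMSO and 61.6 FPKM in I/R+Rk2. Its exons overlap those of DDIT4-AS1 on the other strand, and since the sources used here do not say whether counting used strand, reads of the pair cannot be told apart. The same holds for SESN1 with AL390208.1, SESN3 with AP000787.1 and DEPTOR with AP005717.1.

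SESN2, at chromosome 1, 28259527 to 28282491 (plus strand), encodes a leucine-binding sestrin, which holds back the GATOR2 complex, and is a known target of ATF4. It had 33.2, 31.3, 34.8 and 33.4 CPM in I/R+DMSO and 74.5, 80.8, 90.4 and 86.8 CPM in I/R+Rk2. Each I/R+Rk2 library was above each I/R+DMSO library, with the smallest of the 4 in replicate 1. The fold change of 2.50 (95% interval 2.23 to 2.82) was the highest of the 10 members, with a log2FC of 1.32 (SE 0.0696, edgeR adjusted p = 5.2e-05). Across all genes tested it ranked 60 from the top. The gene has no exon overlap in the annotation, and its FPKM rose from a mean of 7.93 to 20.4.

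SESN1, the sestrin gene at chromosome 6, 108986437 to 109094819 (minus strand), had 9.30, 9.75, 11.2 and 10.1 CPM in I/R+DMSO and 10.7, 9.59, 9.80 and 10.4 CPM in I/R+Rk2. The groups overlapped throughout, with a log2FC of 0.0078 (edgeR adjusted p = 0.960). The 95% interval of its fold change, 0.877 to 1.15, holds no change as large as that of SESN2. Its FPKM values in I/R+Rk2 were 3.11, 2.77, 5.50 and 3.40, and the high value of replicate 3 is absent from the counts.

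SESN3, a FOXO-responsive sestrin at chromosome 11, 95165513 to 95232541 (minus strand), had 17.1, 19.6, 18.2 and 23.7 CPM in I/R+DMSO. In I/R+Rk2 it had 3.51, 23.1, 25.5 and 26.5 CPM, so that replicate 1 stood far below the other 7 libraries while the remaining 3 lay within or above the range of I/R+DMSO. In reads, this was 107 counts in replicate 1 against 422 to 523 in the other 3. The log2FC was -0.010 with an SE of 0.519 (edgeR adjusted p = 0.993), and the interval of the fold change, 0.412 to 2.39, is too wide to exclude a change of the size seen in DDIT4. Without I/R+Rk2 replicate 1 the log2FC was 0.35 (edgeR adjusted p = 0.101), and with the gene length correction -0.26 (edgeR adjusted p = 0.780). The FPKM of that library was 1.16, against 2.04, 2.27 and 2.35 in the others and 1.45 to 2.06 in I/R+DMSO.

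The sestrins were also compared with each other within libraries. In each library the FPKM of SESN2 was divided by that of SESN1, and the geometric mean of this ratio was 2.50 in I/R+DMSO (range 2.27 to 2.71) and 5.69 in I/R+Rk2 (4.04 to 7.15). The difference in the log2 ratio was 1.19 (two-sided exact permutation p = 0.0286, the lowest possible with 4 and 4 libraries, and 0.0714 after Benjamini-Hochberg adjustment over the 5 ratios examined). For SESN2 to SESN3 the ratio went from 4.52 to 10.8, a log2 difference of 1.25 with the same exact permutation p and the same adjusted value. The groups did not overlap in either ratio, yet neither passed after adjustment when taken from FPKM. With only these ratios at the lowest possible p, 0.0714 was the lowest adjusted value they could take, so this does not measure their strength. From counts the log2 differences were 1.31 and 1.67, both without overlap (exact permutation p = 0.0286, adjusted 0.0286 each). There all 5 ratios were at the lowest possible p, so adjustment left it unchanged. Of the summed FPKM of the 3 sestrins, SESN2 made up 61.6% ± 1.58 in I/R+DMSO and 78.6% ± 3.11 in I/R+Rk2 (SD, n = 4 each). SESN1 went from 24.7% ± 1.80 to 14.0% ± 3.08 and SESN3 from 13.8% ± 2.41 to 7.42% ± 1.56 (SD, n = 4 each), a smaller share of a larger sum. That sum was 12.9 ± 0.257 FPKM in I/R+DMSO and 26.0 ± 3.29 FPKM in I/R+Rk2 (SD, n = 4 each).

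The TSC complex was followed through TSC1 and TSC2. TSC1 (hamartin), at chromosome 9, 132891348 to 132946874 (minus strand), stabilizes the complex. It had 57.4, 65.2, 66.8 and 67.8 CPM in I/R+DMSO and 84.7, 87.3, 86.1 and 90.3 CPM in I/R+Rk2. The groups did not overlap, and the 4 I/R+Rk2 libraries lay within a narrow range. The log2FC was 0.44 (SE 0.0594, edgeR adjusted p = 0.00301), a fold change of 1.35 (95% interval 1.22 to 1.498). With the correction for gene length it was 0.26, still past the threshold (edgeR adjusted p = 0.0021), and its exons overlap those of GFI1B on the other strand.

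TSC2 (tuberin), the subunit that acts on Rheb, lies at chromosome 16, 2047465 to 2089487 (plus strand), with exon overlaps to NTHL1 and PKD1 on the other strand. Its CPM was 39.9, 43.8, 45.9 and 44.0 in I/R+DMSO and 43.4, 44.7, 48.0 and 43.9 in I/R+Rk2. The groups overlapped, with a log2FC of 0.052 (edgeR adjusted p = 0.582) and a fold change of 1.04 whose 95% interval, 0.937 to 1.15, ends below the point estimate for TSC1. The ratio of TSC1 to TSC2 by FPKM had a geometric mean of 0.644 in I/R+DMSO and 0.926 in I/R+Rk2 (log2 difference 0.53, exact permutation p = 0.0857, adjusted 0.143). Computed from counts it differed by 0.39 with no overlap between groups (exact permutation p = 0.0286, adjusted 0.0286). The FPKM of TSC2 scattered more than its counts, between 8.96 and 21.2 in I/R+Rk2, and the call on this ratio thus rests on the table used.

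**Figure D2:**
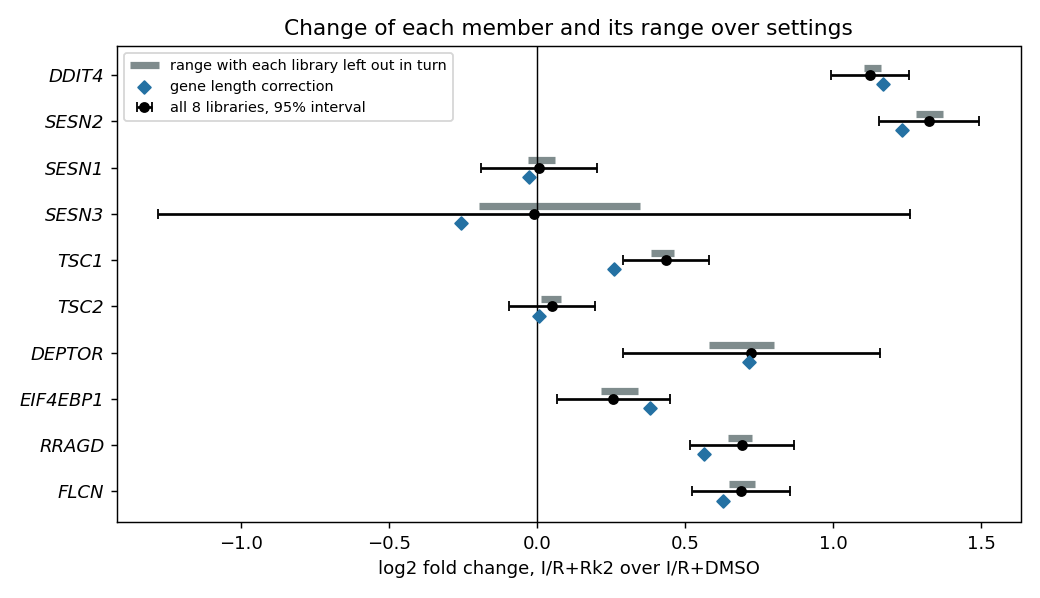
Log2 fold change of each gene, I/R+Rk2 over I/R+DMSO (x axis), with its 95% interval over the 8 libraries (black), the range over the 8 leave-one-out fits (grey bar) and the value with a gene length correction (blue). DDIT4 at 1.13 and SESN2 at 1.32 stand clear of 0 in every fit shown, and the interval of SESN3 is the widest.

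DEPTOR binds mTOR and inhibits it within both mTOR complexes. The gene, at chromosome 8, 119873717 to 120050913 (plus strand), was the least abundant member by FPKM, with 34 to 140 reads per library. It had 1.81, 2.97, 2.92 and 2.86 CPM in I/R+DMSO and 4.59, 4.82, 4.42 and 3.64 CPM in I/R+Rk2, and the groups did not overlap. The log2FC was 0.72 (SE 0.177, edgeR adjusted p = 0.0264), a fold change of 1.65 (95% interval 1.22 to 2.23). Without I/R+DMSO replicate 1 it was 0.58 (edgeR adjusted p = 0.0232), just under a fold change of 1.5. The lowest library, I/R+DMSO replicate 1, was not low in FPKM, at 1.15 against 0.968 to 1.07 in the other 3, and I/R+Rk2 lay between 1.45 and 1.58 FPKM, again without overlap. On that scale the change was smaller, 0.29 on log2(FPKM + 1) and 0.49 on log2(FPKM + 0.1), both past the threshold in limma. The call in edgeR was lost without I/R+Rk2 replicate 1, without replicate 2 and without replicate 3 of that group, at an adjusted p of up to 0.0676 (edgeR), and at this depth it is the least firm of the 6.

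EIF4EBP1, at chromosome 8, 38030341 to 38060365 (plus strand), encodes 4E-BP1, the translational repressor that mTORC1 inactivates, and is a known ATF4 target. It was the most abundant member by FPKM, and had 137, 114, 112 and 108 CPM in I/R+DMSO and 147, 140, 144 and 132 CPM in I/R+Rk2. I/R+DMSO replicate 1 lay within the range of I/R+Rk2, and the other 3 libraries of its group lay below that range. The log2FC was 0.26 (SE 0.0782, edgeR adjusted p = 0.0538), a fold change of 1.20 (95% interval 1.05 to 1.37). Without I/R+DMSO replicate 1 it was 0.34 (edgeR adjusted p = 0.00447), and with the gene length correction 0.38 (edgeR adjusted p = 0.0013). DESeq2 also placed EIF4EBP1 past the threshold (adjusted p = 0.0184), so whether this gene is counted depends on the tool. The ratio of EIF4EBP1 to its binding partner EIF4E by FPKM was 7.02 in I/R+DMSO and 6.91 in I/R+Rk2 (log2 difference -0.024, exact permutation p = 0.971, adjusted 0.971). From counts the same ratio was higher in I/R+Rk2 by 0.48 on the log2 scale, without overlap (exact permutation p = 0.0286, adjusted 0.0286), so the tables differ on its direction. EIF4E itself had a log2FC of -0.22 (edgeR adjusted p = 0.0576). It was called lower by DESeq2 (adjusted p = 0.0210) and with the gene length correction (-0.32, edgeR adjusted p = 0.0239). By FPKM its mean went the other way, from 13.7 in I/R+DMSO to 17.2 in I/R+Rk2, without passing in limma. EIF4EBP1 was higher on both scales, so EIF4E is where the tables part.

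RRAGD and FLCN belong to the lysosomal amino acid branch, as nutrient-sensing regulators and not as inhibitors of mTORC1. RRAGD, at chromosome 6, 89364636 to 89412270 (minus strand), encodes the Rag GTPase RagD and is a known target of TFEB and TFE3. It had 22.9, 21.8, 22.2 and 19.4 CPM in I/R+DMSO and 34.2, 37.3, 32.3 and 35.6 CPM in I/R+Rk2. The groups were well apart, and the log2FC was 0.69 (SE 0.0718, edgeR adjusted p = 9.8e-04), a fold change of 1.62 (95% interval 1.43 to 1.82), and 0.56 with the gene length correction (edgeR adjusted p = 0.00498). Its FPKM went from 4.15, 3.92, 3.96 and 3.51 to 9.05, 6.94, 6.00 and 8.82. FLCN, at chromosome 17, 17212212 to 17237188 (minus strand), encodes folliculin, the GTPase-activating protein for RagC and RagD, with AC055811.2 overlapping on the same strand. It had 42.1, 43.3, 42.5 and 37.8 CPM in I/R+DMSO and 60.2, 69.3, 67.9 and 69.9 CPM in I/R+Rk2, with no overlap and the lowest I/R+Rk2 value in replicate 1. The log2FC of FLCN was also 0.69 (SE 0.0677, edgeR adjusted p = 7.8e-04), a fold change of 1.61 (95% interval 1.44 to 1.81). For both genes every alternative fit run kept the adjusted p below 0.05.

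**Figure D3:**
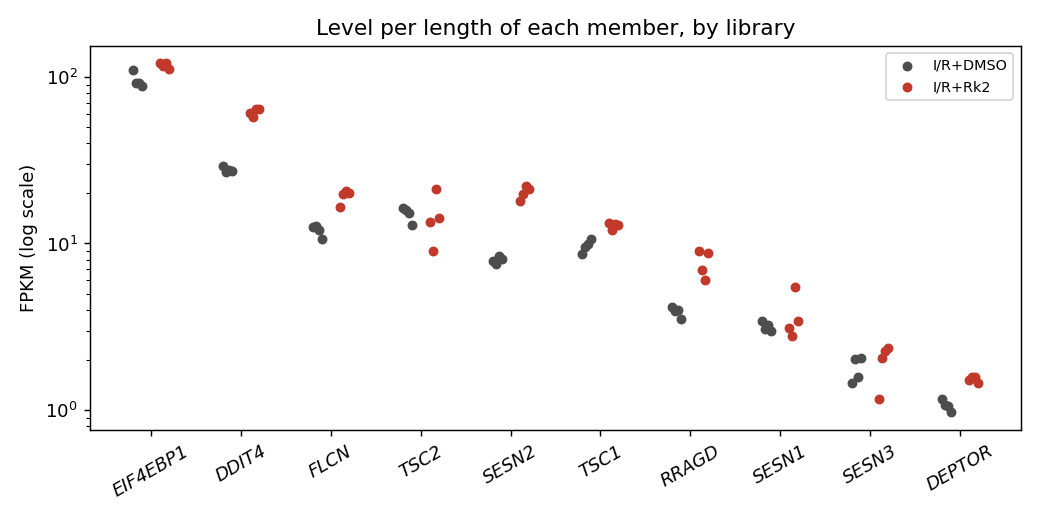
FPKM (log scale, y axis) of the 10 genes in each library, I/R+DMSO in grey and I/R+Rk2 in red, ordered by level. EIF4EBP1 is highest, at 88.1 FPKM or more, and DEPTOR has the lowest group means, 1.06 and 1.53.

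Per length, the order in I/R+DMSO was EIF4EBP1 (mean 95.7 FPKM), DDIT4 (27.7), TSC2 (15.1), FLCN (11.98), TSC1 (9.70), SESN2 (7.93), RRAGD (3.89), SESN1 (3.17), SESN3 (1.77) and DEPTOR (1.06). Of neighbours in this order, the libraries of FLCN and TSC1 overlapped and the others did not. In I/R+Rk2 SESN2, at a mean of 20.4 FPKM, stood behind EIF4EBP1 and DDIT4 in the third place, with libraries that overlapped those of FLCN at 19.2. The rest of that order was TSC2 (14.4), TSC1 (12.8), RRAGD (7.70), SESN1 (3.70), SESN3 (1.95) and DEPTOR (1.53). Here FLCN and TSC2, TSC2 and TSC1, and SESN3 and DEPTOR overlapped as well.

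The count and FPKM tables did not describe all members alike. For each gene the log2 ratio of CPM to FPKM was taken in each library, and in DDIT4, SESN2 and EIF4EBP1 it was nearly constant, with a range over the 8 libraries of 0.063 to 0.073. It was 0.14 in FLCN, 0.20 in TSC1 and 0.57 in RRAGD. In SESN1 and DEPTOR the range was 0.96, in TSC2 1.14 and in SESN3 1.96, which is larger than in 98.2% of the 12745 genes compared. The length that counts and FPKM imply for SESN3 was 3051 bases in I/R+Rk2 replicate 1 and up to 11511 bases in the other libraries. The low count of SESN3 in that library therefore came with a shorter implied transcript, and what set it was not tested.

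**Figure D4:**
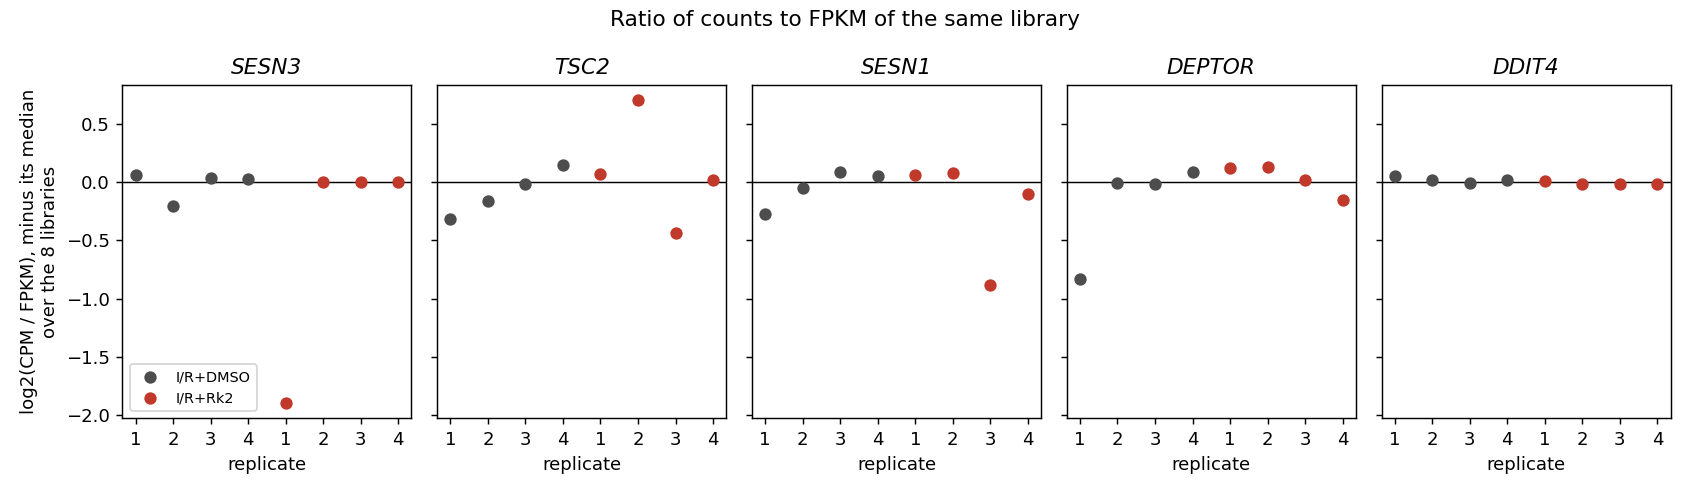
Log2 ratio of CPM to FPKM in each library (x axis, replicate), minus its median over the 8 libraries, for SESN3, TSC2, SESN1, DEPTOR and, for comparison, DDIT4. DDIT4 stays at 0 within a range of 0.063, while single libraries depart in the others, I/R+Rk2 replicate 1 of SESN3 by -1.90.

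The rest of the pathway was examined with 58 further genes in 5 lists, of which 52 were tested. Of these 10 rose, 3 fell and 39 did not pass, with a median log2FC of -0.046 and 18 genes without overlap between groups. Of all genes tested, 11.0% were called higher, 7.24% lower and 28.3% had no overlap, against 10, 3 and 18 of these 52. Of all 12910 genes tested 10558 did not pass, so 39 of these 52 does not mark the pathway as less changed than other genes. The genes that rose lay mainly among the Rag and folliculin partners and the translation and substrate list.

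Among 11 Rag GTPases, Ragulator subunits and folliculin partners, 3 rose and none fell, where 11.0% and 7.24% of all genes did. FNIP1, a folliculin-interacting protein, rose from 14.6 ± 1.57 to 30.5 ± 1.36 CPM (SD, n = 4 each), with a log2FC of 1.06 (edgeR adjusted p = 3.3e-04). FNIP2, its paralog, had a log2FC of 0.44 (edgeR adjusted p = 0.0158), and of 0.27 with the gene length correction (edgeR adjusted p = 0.0186). RRAGC, the paralog of RRAGD, rose from 28.7 ± 2.30 to 50.7 ± 2.29 CPM (SD, n = 4 each), with a log2FC of 0.82 (edgeR adjusted p = 4.3e-04). FLCN, FNIP1, FNIP2, RRAGC and RRAGD, which encode folliculin, its binding partners and the Rag proteins on which it acts, were thus all past the threshold. RRAGA and RRAGB, the Rag proteins with which RagC and RagD pair, had log2FC values of -0.095 and -0.19 and did not pass (adjusted p = 0.210 and 0.440, edgeR). The 5 Ragulator genes LAMTOR1 to LAMTOR5 lay between -0.36 and -0.10 without passing. The exons of FNIP1 and RRAGC overlap those of AC008695.1 and AL139260.2 on the same strand, so reads could be counted to either. The ratio of RRAGD to RRAGC by FPKM was 0.409 in I/R+DMSO and 0.463 in I/R+Rk2 (log2 difference 0.18, exact permutation p = 0.343, adjusted 0.429), and from counts it was lower in I/R+Rk2, at -0.13 (exact permutation p = 0.0286, adjusted 0.0286). Which of these paralogs rose more is therefore not settled by these tables.

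The kinase complexes and the upstream sensors were set against all genes tested, of which 11.0% were called higher and 7.24% lower. Lists this short cannot show a share below that. Of 10 subunits and assembly factors of mTORC1 and mTORC2, RICTOR, the defining subunit of mTORC2, rose by a log2FC of 0.72 (edgeR adjusted p = 0.0169), from 26.4 ± 3.91 to 43.5 ± 8.46 CPM (SD, n = 4 each). With the gene length correction it was no longer past the threshold (0.50, edgeR adjusted p = 0.0742), and OSMR overlaps it on the other strand. RPTOR, the defining subunit of mTORC1, was lower at -0.19 (edgeR adjusted p = 0.0373), and at -0.32 with the gene length correction, and the call held in 2 of 8 leave-one-out fits. It was also lost with library size only, with a replicate block and in each limma fit on FPKM (adjusted p up to 0.762, edgeR or limma). MTOR had a log2FC of 0.20 (edgeR adjusted p = 0.127). Of 14 tested genes for GATOR1, GATOR2, KICSTOR and amino acid sensors, through which the sestrins act, 13 did not pass and none was lower. Of TBC1D7, RHEB, RHEBL1 and TXNIP, the last was lower, with 56.8 ± 2.08 CPM under DMSO and 35.2 ± 1.42 CPM under Rk2 (SD, n = 4 each; log2FC -0.69, edgeR adjusted p = 2.0e-04), and the other 3 did not pass. TXNIP, a thioredoxin-binding arrestin, can bind REDD1. DDIT4L, the paralog of DDIT4, had too few counts to be tested.

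Of 13 tested eIF4E-binding proteins, eIF4F subunits and mTORC1 substrates, 5 rose and 1 fell, where 11.0% and 7.24% of all genes did. PDCD4, an inhibitor of the helicase eIF4A, had a log2FC of 0.57 (edgeR adjusted p = 0.00559). ULK1, the autophagy kinase that mTORC1 restrains, had one of 0.50 (edgeR adjusted p = 0.00315). Both held in every alternative fit that used all libraries or left out 1. GRB10, an adaptor stabilized by mTORC1, was at 0.26 (adjusted p = 0.0185), EIF4EBP2, which encodes 4E-BP2, at 0.22 (adjusted p = 0.0483) and EIF4B at 0.15 (adjusted p = 0.0251), all from edgeR. EIF4A1, the helicase, was lower at -0.23 (edgeR adjusted p = 0.0480). EIF4EBP2 and EIF4A1 each passed in 1 of the 8 fits that left out a library, EIF4B passed in 3 of 8, and GRB10 in 6 of 8. With the gene length correction EIF4EBP2 was at 0.0053 (edgeR adjusted p = 0.937), EIF4B at 0.069 (edgeR adjusted p = 0.247), EIF4A1 at -0.13 (edgeR adjusted p = 0.121) and GRB10 at 0.17 (edgeR adjusted p = 0.0297). GRB10 was not past the threshold in the limma fits on FPKM (adjusted p up to 0.216).

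**Figure D5:**
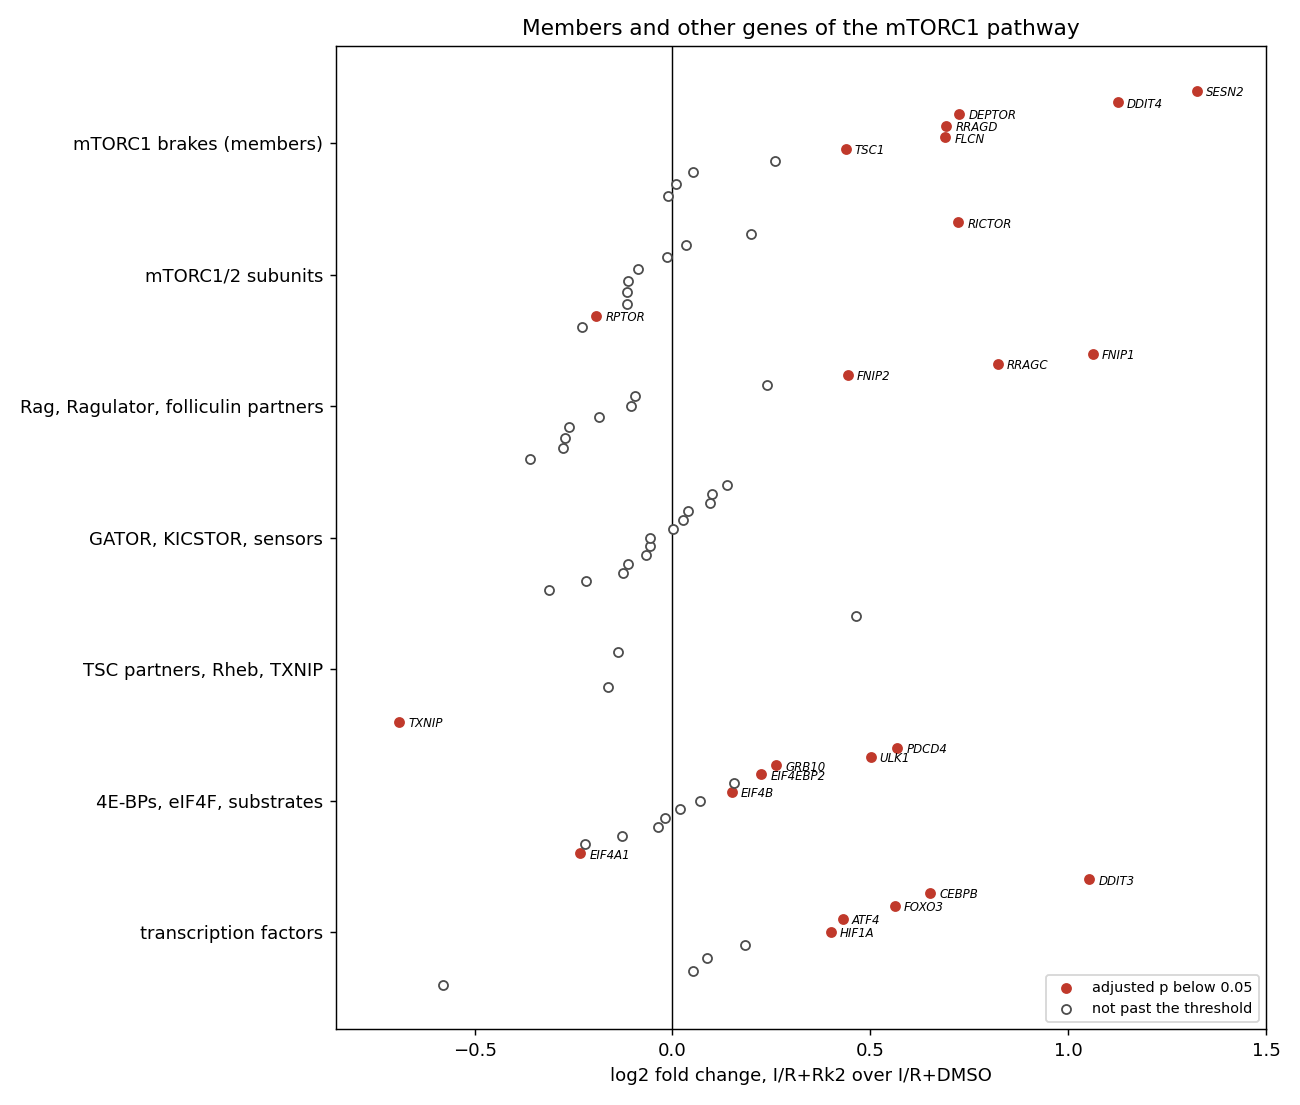
Log2 fold change, I/R+Rk2 over I/R+DMSO (x axis), of the 10 members and of genes of 6 further lists, red where the adjusted p was below 0.05 in edgeR. Of the members 6 of 10 are red, all to the right of 0, and FNIP1 at 1.06 lies furthest to the right among the other pathway genes.

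Of 10 transcription factors known to induce members, 5 rose at the RNA level and none fell, where 11.0% and 7.24% of all genes did. ATF4, the effector of the integrated stress response, rose from 515 ± 35.9 to 693 ± 13.4 CPM (SD, n = 4 each), with a log2FC of 0.43 (edgeR adjusted p = 0.00185). CEBPB, a binding partner of ATF4, had a log2FC of 0.65 (adjusted p = 1.7e-04), FOXO3 of 0.56 (adjusted p = 0.00604) and HIF1A of 0.40 (adjusted p = 8.6e-04), all from edgeR. These 4 kept an adjusted p below 0.05 in every alternative fit that used all libraries or left out 1, with FOXO3 at 0.34 after the gene length correction. DDIT3, which encodes CHOP, had a log2FC of 1.05 (edgeR adjusted p = 0.0297), from 12.3 ± 4.47 to 25.6 ± 4.68 CPM (SD, n = 4 each), and passed in 2 of the 8 fits that left out a library. Its exons overlap those of AC022506.1 on the same strand and of MARS and MBD6 on the other. Those of HIF1A overlap AL137129.1 on the same strand and HIF1A-AS1 on the other, and those of CEBPB overlap CEBPB-AS1 on the other. Reads of these genes may thus be shared. FOXO1 (0.18, adjusted p = 0.184), TFE3 (0.088, adjusted p = 0.298), NR3C1 (0.052, adjusted p = 0.832) and TFEB (-0.58, adjusted p = 0.118) did not pass in edgeR. RNA levels of these factors say nothing of their activity, and their part in the members' changes was not tested.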

How the data were processed

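RNA was sequenced from 8 libraries of HuH7 cells, grouped by their labels. From 250 ng of RNA each, libraries were made by the authors. The authors deposited raw read counts per gene, with no normalization, and FPKM values, normalized for gene length and library size. The submitters' processing notes name hg38, FastQC 0.11.5, HISAT2 2.2.1 and StringTie 1.3.3. The counting tool, annotation and strand setting are not given in the sources used here. Some gene symbols, 22 in the table of counts, had been turned into dates (0.111% of counts) and were left out. Without strand, antisense genes share reads.

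The 12910 genes that reached 10 counts in 4 or more libraries were normalized by TMM and tested with edgeR 4.0.16 in R 4.3.3 (robust quasi-likelihood test, condition as the only term, Benjamini-Hochberg adjustment, threshold 0.05, with a fold change of 1.5 counted besides). CPM values are TMM-normalized. The biological coefficient of variation was 17.1%, and chi-square per degree of freedom within groups was 16.1 to 29.8, so no library was a repeat of another. The 95% intervals used 6 residual degrees of freedom. Ratios of related genes were taken from FPKM and tested over libraries by exact two-sided permutation. Coordinates and exon overlaps come from GENCODE v29 (GRCh38). The scripts were tested on simulated data.

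All 10 members are named, with every other pathway gene past the threshold and every gene of the transcription factor list, except that some genes of these lists are not reported here. MTOR, EIF4E, RRAGA, RRAGB and LAMTOR1 to LAMTOR5 were named after their values were seen. The members and lists were chosen with earlier results of these data known. Alternatives were DESeq2 1.42.0, other normalizations, no filter, limma 3.58.1 on log2(FPKM + 1), filtered at a mean of 0.5 FPKM or unfiltered, and on log2(FPKM + 0.1), a replicate block, a gene length correction by a loess curve with a span of 0.5, counts in place of FPKM for the ratios, and leaving out each library. Leaving out both replicate 1 libraries was chosen after seeing the data.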

Additional observations from a re-analysis of the deposited data

Results flagged for a closer look

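In 40 groups of 4 libraries (10 genes, CPM and FPKM, each condition), the gap of the highest or lowest library to its nearest neighbour was compared with the range of the group against Dixon's critical ratio for 4 values. Chance gives about 1 in 20 such groups, and 3 were past it. DDIT4 had 61.3 CPM in I/R+DMSO replicate 1 where the other 3 had 55.3 to 56.1 (ratio 0.872), still below every I/R+Rk2 library. SESN3 had 3.51 CPM in I/R+Rk2 replicate 1 where the other 3 had 23.1 to 26.5 (ratio 0.852). DEPTOR had 1.81 CPM in I/R+DMSO replicate 1 where the other 3 had 2.86 to 2.97 (ratio 0.909). None of the 3 libraries was past the ratio in the FPKM of the same gene.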

How the results depend on the processing

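The number of members that rose was 6, and 5 to 7 over all alternatives, with 0 lower in each. Members kept their direction and side of the threshold in 160 of 190 alternative values. EIF4EBP1 passed in 8 and DEPTOR failed in 5, and 17 changed sign. SESN1 was at -0.020 with upper-quartile normalization, -0.028 with the gene length correction, between -0.029 and 0.061 with each library left out, and at -0.059 without both replicate 1 libraries. SESN3 was at 0.021 with library size only, 0.077, 0.10 and 0.077 under limma on log2(FPKM + 1), log2(FPKM + 0.1) and log2(FPKM + 1) without a filter, between -0.19 and 0.35 with each library left out, and at 0.28 without both replicate 1 libraries. TSC2 was at -0.11, -0.12 and -0.11 under the same limma fits. DEPTOR was at an adjusted p of 0.0571 (edgeR) without both replicate 1 libraries.

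Of the other pathway genes 10 rose, 6 under limma without a filter and 7 to 11 with each library left out. Of the 3 that fell, 1 was left with library size only and in each limma fit, and 1 to 4 with each library left out (with 1 when replicate 2 of I/R+DMSO, or any of replicates 1, 2 and 4 of I/R+Rk2, was removed). From counts, the log2 differences of the ratios were 1.31 for SESN2 to SESN1, 1.67 for SESN2 to SESN3, 0.39 for TSC1 to TSC2, 0.48 for EIF4EBP1 to EIF4E and -0.13 for RRAGD to RRAGC, and all 5 passed. With each library left out and FPKM they lay at 1.08 to 1.35, 1.07 to 1.34, 0.35 to 0.72, -0.12 to 0.12 and 0.07 to 0.28. Over all genes, 1417 were higher and 935 lower, against 1246 and 1306 with upper-quartile normalization, 1642 and 683 with library size only, and 1014 and 1243 with the gene length correction. The cause of these shifts was not tested.

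Same-numbered libraries did not pair, with correlations of their deviations of 0.016, -0.0095, 0.038 and 0.085, and only replicate 4 correlated best with its own number. With a replicate block 6 members rose, EIF4EBP1 among them (edgeR adjusted p = 0.0398) and DEPTOR not (edgeR adjusted p = 0.0627), and 8 other pathway genes rose and 2 fell. Depth limits DEPTOR, with 34 to 140 reads per library, and the untested DDIT4L.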
